A study of Drosophila melanogaster with 8 samples.

Results

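The ecdysone receptor and its response genes were read in 2 fly tissues that carried mutations of tgs1, the gene for the enzyme that adds the trimethylguanosine cap to small nuclear RNAs. There were 7 genes, taken by symbol and FlyBase identifier and not by any measured value: EcR, usp, br, Eip74EF, Eip75B, Eip78C and ftz-f1. All 7 had an entry among the 15612 genes of the testis table, and 6 had one among the 15735 named genes of the larval table, where ftz-f1 was not analysed here. Poly(A) RNA was sequenced from adult testes and from whole second instar larvae of Drosophila melanogaster, cultured at 25 °C, with 2 libraries per group and 8 in all.

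The tgs1hypo testes came, by the labels, from tgs1hypo males with a bam-driven moi cDNA, which does not rescue the mutant, and the WT testes from tgs1hypo males with a bam-driven tgs1 cDNA, which restores function. By these labels both testis groups carried the hypomorphic tgs1 alleles and a bam-gal4 driver, which acts in the male germline and not in the somatic cells of the testis. The study gives tgs1hypo as the moiCB0 allele over a second moi/tgs1 allele, and describes it as a partial loss of moi as well. By the labels, moi was supplied in the tgs1hypo testes and tgs1 in the WT testes, so the groups differ in both genes. The study's methods name w1118 as its usual wild type, so which flies gave the WT testes is not fully settled. The tgs1KO larvae were homozygous for tgs12-3, a frameshift deletion that is lethal at the second larval instar. The WT larvae carried tgs12-4, a line from the same mutagenesis with intact reading frames. Each larval line is 1 mutagenesis product. Libraries held about 100 testes or about 80 larvae, and no label says that replicates came from separate cultures, so the spread between them may be technical.

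Ecdysone, in its active form 20-hydroxyecdysone, is the steroid that times the moults and metamorphosis of the fly. It binds a pair of nuclear receptors, EcR and its partner usp (Ultraspiracle, the fly RXR), which switch on a small set of early genes. Those encode regulators themselves: br (Broad, a zinc finger factor), Eip74EF (an ETS factor) and Eip75B (a nuclear receptor related to Rev-erb) pass the signal to later genes, Eip78C encodes another receptor of the Rev-erb type, and ftz-f1 marks the dip in hormone between pulses. In the adult testis the receptor is known to act in the somatic cyst cells that surround the germline, and in larvae the same genes come and go with each moult.

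By the BDGP6.54 annotation, EcR lies at 2R:6087873-6169087, usp at X:2038798-2042311, br at X:1575132-1664869, Eip74EF at 3L:17558672-17619325, Eip75B at 3L:17950953-18064696, Eip78C at 3L:21226609-21266503 and ftz-f1 at 3L:18750607-18801309. Eip74EF overlaps no other annotated gene. EcR overlaps 15 genes and Eip75B 4, all within introns. On the opposite strand br shares exonic bases with Mur2B, which averaged 0.927 FPKM in testes and has no larval entry that was analysed here. There usp shares exonic bases with CG4313, which averaged 1.21 FPKM in testes and 2.07 FPKM in larvae. The library kit did not mark the strand. Fragments from the shared bases can therefore not be assigned to br or Mur2B, nor to usp or CG4313, by strand.

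usp shares exon sequence on its own strand with Actn, the gene for the muscle protein alpha-actinin. In the testis table both genes have an entry. There usp is listed at a position wider than its annotated gene, which 7 other genes share. What this does to the testis usp value was not tested. In the larval table usp has an entry and Actn has none that was analysed here. Of 12679 annotated protein-coding genes with an entry in the larval table, 13 (0.1%) share a same-strand exon with another gene that has an entry, against 735 of 13187 (5.6%) in the testis table. Among the 1307 without a larval entry, 582 (44.5%) share such an exon with a gene that has one. In the larval table, genes with shared exons were therefore rarely listed side by side, and Actn fragments cannot be told apart from usp fragments in the larval usp entry. ftz-f1 shares an exon with the noncoding gene lncRNA:CR45939, which has a larval entry, and the same limit holds there. The other 5 genes share no same-strand exon with any gene, though br shares exonic bases with Mur2B on the opposite strand.

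Values are FPKM, fragment numbers divided by transcript length and by library size, as deposited by the authors. Their sums ran between 792501 and 825832 FPKM in testes and between 601489 and 646994 FPKM in larvae, and replicates correlated at 0.990 in tgs1hypo and 0.994 in WT testes, but only at 0.953 in tgs1KO and 0.929 in WT larvae (Pearson's r across genes on the log2 scale). The library labelled WT larvae replicate 1 stood apart, with 29.0% of its FPKM on the mitochondrial genome, against 15.2% and 13.9% in the tgs1KO larvae and 15.0% in the other WT library. The library labelled tgs1KO larvae replicate 2 held 630 FPKM over 11 genes of the third instar (glue, larval serum and fat body proteins), against 1.77 FPKM in the other tgs1KO library and 5.79 and 54.3 FPKM in WT larvae. The tgs1 gene itself has no entry that was analysed here. moi, which is transcribed on the same RNA, had 3.81 and 2.71 FPKM in tgs1hypo testes, against 10.1 and 11.4 FPKM in WT testes, and 6.41 and 6.85 FPKM in tgs1KO larvae, against 4.64 and 7.42 FPKM in WT larvae. The moi entry was called lower in tgs1hypo testes (log2 change -1.47, limma adjusted p = 0.00039). By the labels a moi cDNA was in the tgs1hypo libraries and a tgs1 cDNA in the WT libraries. moi and tgs1 have the same annotated positions, so the moi entry cannot check these labels. Every testis direction given here is between libraries as they are labelled. Transgene and endogenous RNA, and the moi and tgs1 parts of the shared RNA, cannot be told apart in these values, and a frameshift need not lower an RNA, so the larval value checks nothing.

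The first comparison asked how the receptor and its response genes stood in tgs1hypo testes. None of the 6 genes with enough signal was called. A call needed an adjusted p under 0.05 in limma and a change of at least 1 on the log2(FPKM + 1) scale, that is 2-fold in FPKM + 1. Over all 11343 genes tested 10.6% were called, 3.54% higher and 7.11% lower in tgs1hypo. On the adjusted p alone 2 of the 6 passed, against 57.7% of all genes tested (34.3% higher and 23.4% lower): usp rose by 0.45 and Eip74EF fell by 0.51 on the log2 scale. The median change of all tested genes was 0.11.

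Of the receptor pair, usp passed on the adjusted p and EcR did not, and the difference between their changes was not tested. EcR had 1.46 and 1.85 FPKM in tgs1hypo testes, against 2.09 and 1.51 FPKM in WT testes. The groups overlapped and the log2 change was -0.07 ± 0.18 (SE, n = 2 each, 95% interval -0.50 to 0.36, limma adjusted p = 0.75). usp had 11.2 and 9.87 FPKM in tgs1hypo testes, against 8.60 and 6.37 FPKM in WT testes. Both tgs1hypo libraries lay above both WT libraries, with a log2 change of 0.45 ± 0.16 (95% interval 0.08 to 0.83, limma adjusted p = 0.042). The pass of usp rested on single choices. Its change ran from 0.26 without WT replicate 2 to 0.65 without WT replicate 1, and its adjusted p was 0.080 with no filter on low values, 0.079 with median-of-ratios scaling, 0.060 with no mean-variance trend, 0.154 without WT replicate 2 and 0.127 without tgs1hypo replicate 1. Within each library, free of scaling, usp stood at 7.70 and 5.33 times the FPKM of EcR in tgs1hypo testes, against 4.11 and 4.22 times in WT testes. Actn, which shares an exon with usp, had 7.34 and 8.33 FPKM in tgs1hypo testes, against 9.58 and 8.64 FPKM in WT testes, and so lay on the other side of WT from usp.

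Of the early genes, Eip74EF differed most. It had 0.715 and 0.700 FPKM in tgs1hypo testes, against 1.29 and 1.57 FPKM in WT testes, so the mutant mean was 0.496 of the WT mean. On the log2(FPKM + 1) scale, which understates changes of low genes, this was -0.51 ± 0.16 (95% interval -0.90 to -0.11, limma adjusted p = 0.035). With a pseudocount of 0.1 in place of 1 the change was -0.91 (adjusted p = 0.039). With quantile normalization it was -0.29 (adjusted p = 0.199), and without tgs1hypo replicate 1 or 2 the adjusted p was 0.067 or 0.077. At these levels the gene sits just above the minimum mean of 1 FPKM, and it fell under it when either WT library was left out.

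br and Eip75B also lay lower in both tgs1hypo libraries, without passing the test. br had 1.26 and 1.41 FPKM in tgs1hypo testes, against 1.56 and 1.52 FPKM in WT testes (log2 change -0.12 ± 0.15, limma adjusted p = 0.52). Eip75B had 5.12 and 6.71 FPKM in tgs1hypo testes, against 7.28 and 6.95 FPKM in WT testes (-0.24 ± 0.15, limma adjusted p = 0.21), and its change was -0.072 without tgs1hypo replicate 1 and -0.41 without tgs1hypo replicate 2. The nearest values of Eip75B, 6.71 FPKM in tgs1hypo and 6.95 FPKM in WT, were closer to each other than the tgs1hypo replicates were.

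The remaining receptors showed no separation. ftz-f1 had 3.19 and 3.69 FPKM in tgs1hypo testes, against 3.29 and 3.12 FPKM in WT testes (0.08 ± 0.14, 95% interval -0.27 to 0.42, limma adjusted p = 0.67). Eip78C had 0.519 and 0.613 FPKM in tgs1hypo testes, against 0.640 and 0.464 FPKM in WT testes, and was too low to be tested. In all, 4 of the 6 genes tested had groups that did not overlap, against 80.4% of all genes tested.

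**Figure D1:**
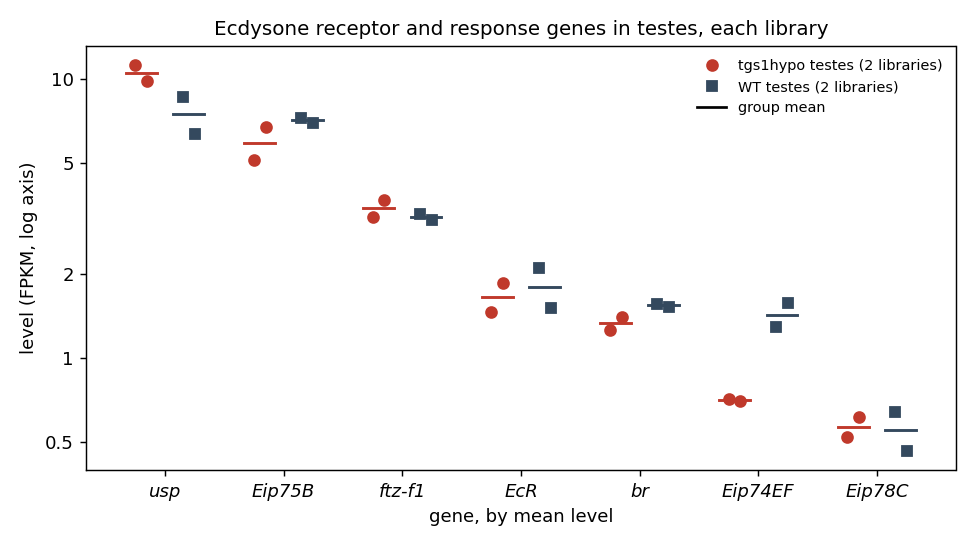
FPKM of the 7 genes in each testis library on a log axis (circles, 2 tgs1hypo libraries; squares, 2 WT libraries; lines, group means). usp lies above WT in both tgs1hypo libraries, Eip74EF lies at 0.715 and 0.700 FPKM in tgs1hypo against 1.29 and 1.57 FPKM in WT, and EcR, ftz-f1 and Eip78C overlap.

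In testes the genes stood in the order usp (9.02 FPKM, mean of 4 libraries), Eip75B (6.51 FPKM), ftz-f1 (3.32 FPKM), EcR (1.73 FPKM), br (1.44 FPKM), Eip74EF (1.07 FPKM) and Eip78C (0.559 FPKM). The ranges of usp and Eip75B overlapped, as did those of EcR and br and of br and Eip74EF, so those neighbours could not be ordered. ftz-f1 was clear of Eip75B above it and EcR below it, and Eip78C lay under Eip74EF in every library. usp was higher than 56.4% of named genes in testes.

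Cell type markers moved too. The 13 germline markers summed to 10831 and 10658 FPKM in tgs1hypo testes, against 16314 and 17961 FPKM in WT testes, but 6 lay above WT and 6 below in both tgs1hypo libraries. Mst84Da was called lower (1374 and 1366 FPKM, against 5419 and 6048 FPKM in WT), and twe was called higher (137 and 130 FPKM, against 63.9 and 64.6 FPKM in WT). The 10 markers of cyst and hub cells, where the receptor is known to act, summed to 92.6 and 102 FPKM in tgs1hypo testes, against 102 and 94.8 FPKM in WT testes, with 3 above WT and 3 below. Of these, os, the hub ligand gene upd1, was called lower (2.63 and 2.45 FPKM, against 9.05 and 9.13 FPKM in WT), while eya, a cyst cell factor, rose by 0.62 on the adjusted p alone. Of 4 markers of the testis sheath, all lay lower in tgs1hypo (sums of 101 and 118 FPKM, against 216 and 206 FPKM in WT), and 8 of 9 accessory gland markers did (1850 and 1934 FPKM, against 3040 and 2998 FPKM in WT), where 32.6% of all tested genes lay below WT in both tgs1hypo libraries. The sheath markers Mhc, Act57B and Mlc2 are general muscle genes, and the change of w did not pass (limma adjusted p = 0.11). No marker was at 0 in all libraries. Fewer cells of a type and less RNA per cell cannot be told apart in these samples, nor can a differing share of accessory gland tissue. The part of these shifts in the values of usp and Eip74EF was not tested.

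Further down the cascade in testes, 1 of 14 tested nuclear receptors and transcription factors was called, against 10.6% of all genes tested, and it fell. Eip93F, a late factor of metamorphosis, had 1.78 and 2.50 FPKM in tgs1hypo testes, against 5.92 and 6.35 FPKM in WT testes (log2 change -1.19 ± 0.16, limma adjusted p = 0.00097). Hr46, known as DHR3, which acts between the early genes and ftz-f1, had 1.39 and 1.46 FPKM in tgs1hypo testes, against 3.97 and 3.65 FPKM in WT testes. Its change of -0.99 ± 0.15 (limma adjusted p = 0.0014) fell just short of the limit of 1 on the log2(FPKM + 1) scale. In FPKM its mutant mean was 0.374 of the WT mean. Hr96 and Hr78 rose on the adjusted p alone. Hr96 had 17.0 and 17.4 FPKM in tgs1hypo testes, against 13.1 and 12.0 FPKM in WT testes. Hr78, the most abundant of the list, had 17.9 and 19.2 FPKM, against 14.9 and 13.4 FPKM in WT testes. The median change of the 14 genes was 0.045.

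Of the genes named for their induction by ecdysone, 0 of 11 tested were called in testes (median change -0.0076), while 3 passed on the adjusted p alone, a lower share than the 57.7% of all genes tested. Eip55E, an enzyme of sulfur amino acid metabolism, had 35.6 and 35.0 FPKM in tgs1hypo testes, against 24.1 and 20.0 FPKM in WT testes (log2 change 0.66). Dronc, the initiator caspase, rose by 0.41, and Eip63E, a cyclin-dependent kinase, fell by 0.27 on the log2 scale. The most abundant was ImpL3, the lactate dehydrogenase gene, with 36.5 and 42.4 FPKM in tgs1hypo testes, against 38.6 and 34.3 FPKM in WT testes, where the groups overlapped. Of the late puff genes at 71E, 6 of 11 had an entry and 1 could be tested: Eig71Eb fell, with 1.26 and 2.16 FPKM in tgs1hypo testes, against 5.39 and 8.12 FPKM in WT testes (log2 change -1.51 ± 0.23, limma adjusted p = 0.0017). The 3 prepupal cuticle genes Edg78E, Edg84A and Edg91 were too low to test.

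Of the 14 coactivators, corepressors and chaperones that work with the receptor, 0 were called. On the adjusted p alone 7 rose and 0 fell, against 34.3% and 23.4% of all genes tested, and 4 of the 14 changes were below 0. Their median change was 0.35, against 0.11 for all tested genes. rig, a coactivator that larvae need for ecdysone responses, had 12.7 and 14.3 FPKM in tgs1hypo testes, against 7.45 and 5.58 FPKM in WT testes (log2 change 0.96 ± 0.15, limma adjusted p = 0.0018). mbf1, a coactivator of ftz-f1, had 231 and 219 FPKM in tgs1hypo testes, against 136 and 140 FPKM in WT testes (0.70 ± 0.06). Met, a juvenile hormone receptor, changed by 0.74, FK506-bp1 by 0.69, the chaperone gene Hsc70-4 by 0.51, the histone methyltransferase gene trr by 0.44 and the corepressor gene bon by 0.36. Hsc70-4 was the most abundant, at 1094 and 1042 FPKM in tgs1hypo testes, against 793 and 708 FPKM in WT testes. The coactivator gene tai lay lower in both tgs1hypo libraries, at 4.07 and 3.90 FPKM, against 5.40 and 4.80 FPKM in WT testes (limma adjusted p = 0.11).

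Of the genes for hormone uptake, activation and turnover, 0 of 6 tested were called in testes (median change 0.23), and Jheh2 and Jheh1, which encode juvenile hormone epoxide hydrolases, rose on the adjusted p alone, by 0.50 and 0.27. shd, whose product makes 20-hydroxyecdysone, had 4.81 and 3.86 FPKM in tgs1hypo testes, against 5.57 and 6.55 FPKM in WT testes (limma adjusted p = 0.058). Oatp74D, the ecdysone importer, had 1.44 and 1.84 FPKM in tgs1hypo testes, against 1.33 and 1.30 FPKM in WT testes.

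The second comparison set tgs1KO against WT second instar larvae. None of the 6 genes with a larval entry was called, all 6 had groups that overlapped, and the changes ran from -0.02 to 0.35, around a median of 0.25 over all 9545 genes tested. In these larvae 0% of genes were called by limma with either direction counted, and 742 genes had an unadjusted p under 0.05. Groups did not overlap for 47.6% of all genes tested.

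EcR had 3.05 and 3.29 FPKM in tgs1KO larvae, against 4.11 and 2.48 FPKM in WT larvae, so both tgs1KO libraries lay between the WT libraries (log2 change -0.02 ± 0.26, 95% interval -0.70 to 0.67, limma adjusted p = 0.98). The usp entry had 113.8 and 92.6 FPKM in tgs1KO larvae, against 56.0 and 122.6 FPKM in WT larvae (0.30 ± 0.42, adjusted p = 0.74), and again the WT libraries enclosed the tgs1KO ones.

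The larval usp entry was set beside the genes of body wall muscle. Of 14 sarcomere genes tested (a list made after the values were seen, so a description only), 6 had the same order of the 4 libraries as usp, highest in WT replicate 2 and lowest in WT replicate 1, against 4.9% of all tested genes. Being lowest in WT replicate 1 was itself common, at 12 of the 14 and 54.3% of all tested genes. Mhc, the muscle myosin heavy chain gene, had 428 and 415 FPKM in tgs1KO larvae, against 165 and 605 FPKM in WT larvae. Prm, the paramyosin gene, had 454 and 370 FPKM, against 181 and 521 FPKM in WT larvae. Mf, the myofilin gene, went otherwise, with 606 and 400 FPKM, against 431 and 401 FPKM in WT larvae. Of the receptor set Eip74EF was also highest in WT replicate 2 and lowest in WT replicate 1, and EcR and Eip78C were higher in WT replicate 1 than in WT replicate 2. With Actn unlisted, the larval usp level of 96.3 FPKM, higher than 96.1% of named genes, cannot be read as usp RNA alone.

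**Figure D2:**
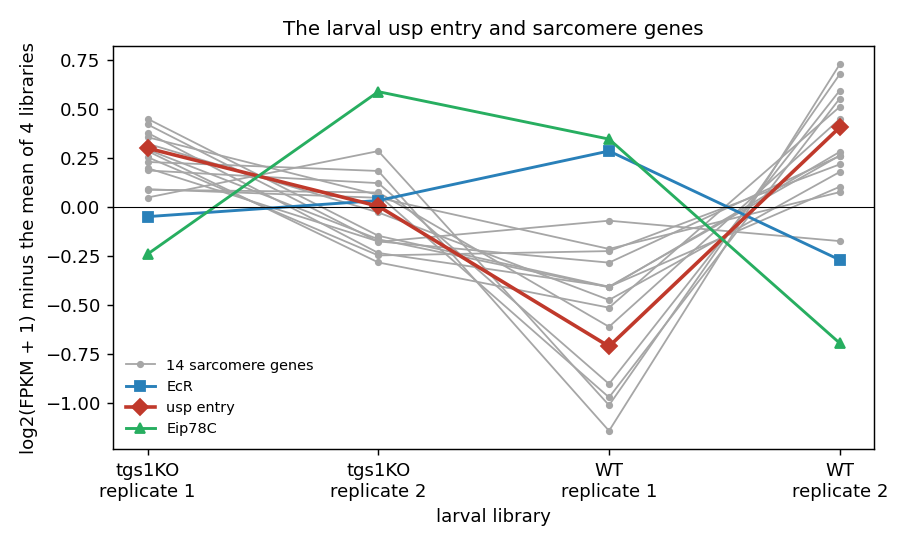
log2(FPKM + 1) minus the mean of the 4 larval libraries, for the usp entry, EcR, Eip78C and 14 sarcomere genes, with the tgs1KO libraries left of the WT libraries. The usp entry and 13 of the 14 sarcomere genes are lower in WT replicate 1 than in WT replicate 2 (usp, 56.0 and 122.6 FPKM), as are 62.9% of all tested genes, while EcR and Eip78C run the other way.

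The larval groups also overlapped for the early genes. br had 2.04 and 3.68 FPKM in tgs1KO larvae, against 2.52 and 2.24 FPKM in WT larvae (0.16 ± 0.28, limma adjusted p = 0.80). Eip74EF had 1.19 and 1.71 FPKM, against 0.927 and 1.83 FPKM in WT larvae (0.06 ± 0.30, adjusted p = 0.93). Eip75B had 8.37 and 11.2 FPKM, against 8.29 and 9.61 FPKM in WT larvae (0.11 ± 0.23, adjusted p = 0.84). A 95% interval of -0.49 to 0.71 for Eip75B, the tightest of these, leaves room for changes of either sign, so the test does not show that the genes were equal.

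Eip78C differed widely between replicates. It had 2.27 and 4.80 FPKM in tgs1KO larvae, against 3.91 and 1.39 FPKM in WT larvae (0.35 ± 0.47, limma adjusted p = 0.74). Its replicates differed 2.12-fold in tgs1KO and 2.82-fold in WT larvae. On the log2(FPKM + 1) scale the gaps were 0.83 and 1.04, wider than those of 92.9% of tested genes in tgs1KO and 91.3% in WT. The level was highest in tgs1KO replicate 2 and lowest in WT replicate 2. lncRNA:CR45939, the entry that shares an exon with ftz-f1, had 4.17 and 4.59 FPKM in tgs1KO larvae, against 4.91 and 7.44 FPKM in WT larvae.

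**Figure D3:**
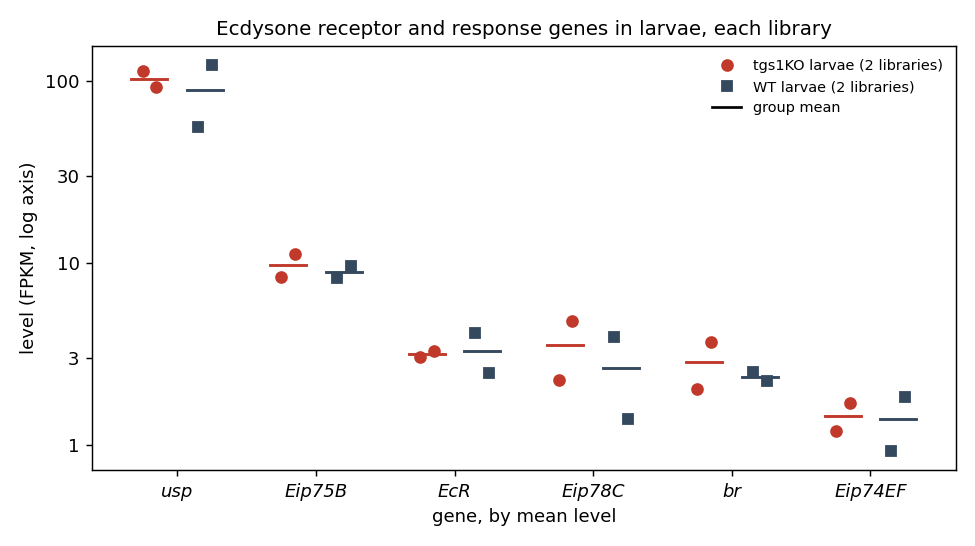
FPKM of the 6 genes with an entry in each larval library on a log axis (circles, 2 tgs1KO libraries; squares, 2 WT libraries; lines, group means). All 6 groups overlap, and the widest gaps between replicates are those of the WT libraries for usp and of both groups for Eip78C.

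**Figure D4:**
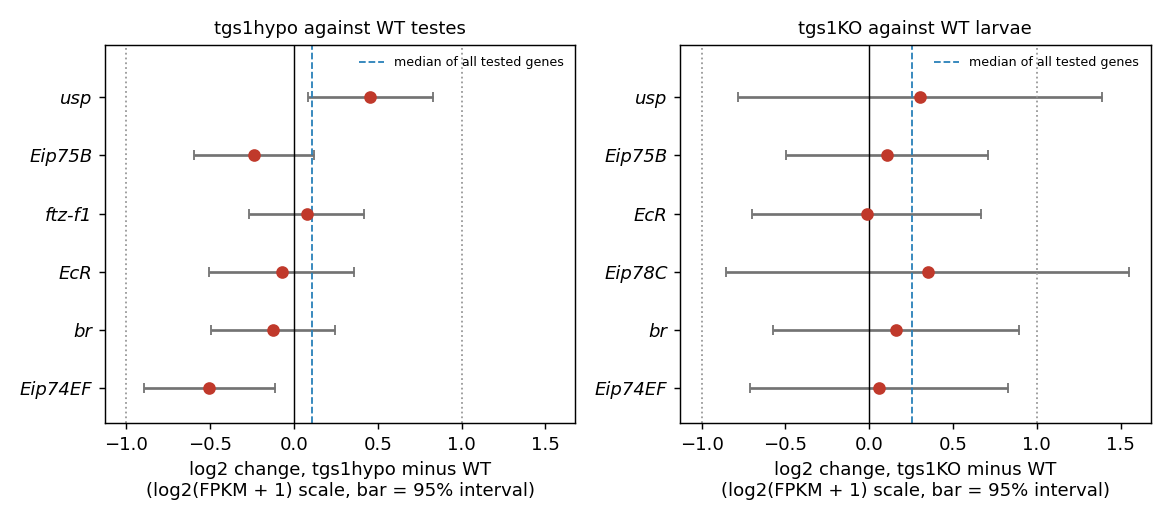
log2 changes of the tested genes with 95% intervals from limma, tgs1hypo minus WT testes on the left and tgs1KO minus WT larvae on the right (dashed line, median of all tested genes, 0.11 and 0.25; dotted lines, the limit of 1). In testes the intervals of usp and Eip74EF leave out 0, and in larvae every interval holds 0.

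The larval order of levels was usp (96.3 FPKM, with the limit above), Eip75B (9.37 FPKM), EcR (3.23 FPKM), Eip78C (3.09 FPKM), br (2.62 FPKM) and Eip74EF (1.41 FPKM). EcR, Eip78C and br overlapped in range and could not be ordered, and Eip74EF, under br in every library, overlapped Eip78C. usp and Eip75B were each clear of the next gene. The tissues stand in tables that were made separately, so levels are set side by side with no test: EcR averaged 1.80 ± 0.42 FPKM in WT testes and 3.29 ± 1.15 FPKM in WT larvae, Eip78C 0.552 ± 0.125 FPKM and 2.65 ± 1.78 FPKM, Eip75B 7.11 ± 0.24 FPKM and 8.95 ± 0.93 FPKM, and Eip74EF 1.43 ± 0.20 FPKM and 1.38 ± 0.64 FPKM (SD, n = 2 each).

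In the wider ecdysone response of larvae several genes differed widely between replicates. None of the 10 tested cascade genes, 14 inducible genes, 6 hormone genes and 14 partners was called, nor was any of the 2 cuticle genes or the 1 late 71E gene with enough signal. ImpL1, an inducible gene of imaginal discs, had 34.2 and 81.5 FPKM in tgs1KO larvae, against 185 and 15.3 FPKM in WT larvae. The WT libraries lay further apart than any tgs1KO library lay from a WT one. ImpE1, ImpE3 and Blimp-1, a repressor that delays ftz-f1, were likewise highest in WT replicate 1 and then in tgs1KO replicate 2. ImpE1 had 1.74 and 4.19 FPKM in tgs1KO larvae, against 7.85 and 1.88 FPKM in WT larvae. ImpE3 had 1.90 and 3.57 FPKM, against 4.01 and 0.386 FPKM in WT larvae. Blimp-1 had 1.52 and 2.43 FPKM, against 5.35 and 0.996 FPKM in WT larvae. Cyp18a1, which inactivates ecdysone and is itself induced by it, had 32.5 and 23.7 FPKM, against 49.6 and 16.4 FPKM in WT larvae.

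Among the 14 inducible genes, 5 were at least 2-fold apart between the WT larval libraries, all higher in replicate 1, against 15.2% of all tested genes apart in either direction. Between the tgs1KO libraries 3 of the 14 were so, all higher in replicate 2, against 7.5% of all tested genes. Other lists went otherwise between the WT libraries, with 1 of 10 cascade genes apart (higher in replicate 1), 3 of 14 partners (all higher in replicate 2) and 3 of 6 hormone genes (2 of them higher in replicate 2). In testes 0 of 11 inducible genes were 2-fold apart in either group. These counts were made after the values were seen, and the cause was not tested. Beside them stand the mitochondrial share of WT replicate 1 and the third instar genes of tgs1KO replicate 2 given above, of which all 9 tested were at least 2-fold higher in that library than in the other tgs1KO library. Hr4 (0.453 and 3.88 FPKM in tgs1KO larvae), ImpE2 (1.18 and 11.9 FPKM) and Eig71Ee (0 and 10.4 FPKM) were also highest in tgs1KO replicate 2, against 1.33 and 0.968, 3.28 and 5.32, and 0.0457 and 0.185 FPKM in WT larvae.

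**Figure D5:**
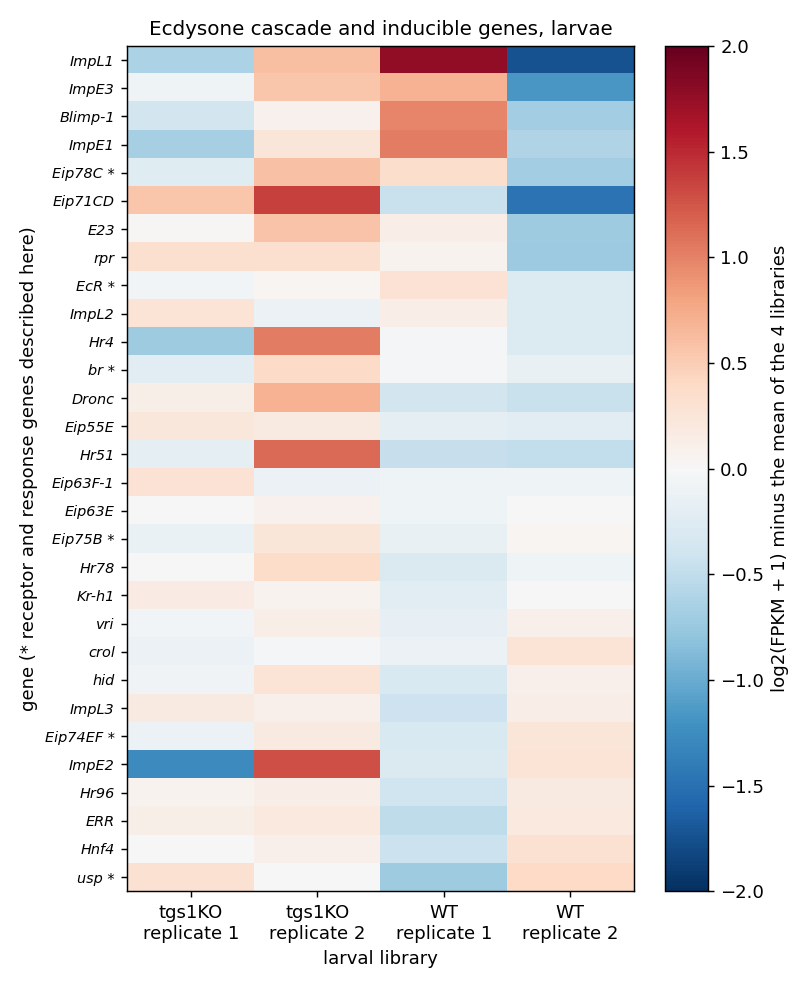
log2(FPKM + 1) minus the mean of the 4 larval libraries for all tested genes of the receptor set (starred) and of the cascade and inducible lists, ordered by the difference between the WT libraries. ImpL1, ImpE3, Blimp-1, ImpE1 and Eip78C are high in WT replicate 1 and low in WT replicate 2, and the usp entry at the foot has the opposite pattern.

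A few larval genes lay higher in both tgs1KO libraries without passing the test. Eip71CD, a methionine sulfoxide reductase gene, had 34.6 and 61.7 FPKM in tgs1KO larvae, against 16.8 and 7.73 FPKM in WT larvae (log2 change 1.92 ± 0.46, limma adjusted p = 0.57), the largest change of the inducible list. Hr51 had 1.17 and 4.34 FPKM, against 0.774 and 0.743 FPKM in WT larvae (0.95 ± 0.47, adjusted p = 0.57). Of the 14 receptor partners 10 lay above WT in both tgs1KO libraries, against 43.1% of all tested genes. The largest change was that of the chromatin remodeller gene kis, with 7.84 and 10.5 FPKM, against 1.59 and 6.39 FPKM in WT larvae (1.20 ± 0.53, adjusted p = 0.57). Their median change was 0.41, against 0.25 for all tested genes. The medians of the other lists were 0.22 for the cascade, 0.24 for the inducible genes and 0.0031 for the hormone genes. ImpL3 among the inducible genes (207 and 195 FPKM, against 137 and 201 FPKM in WT larvae), Hr78 in the cascade (13.9 and 18.0 FPKM, against 11.1 and 12.9 FPKM), Jheh3 among the hormone genes (58.2 and 71.3 FPKM, against 43.5 and 94.1 FPKM) and Hsc70-4 among the partners (1675 and 1464 FPKM, against 967 and 2172 FPKM) were the most abundant.

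Patterns like those of the receptor genes were sought over all 8 libraries, by the root mean square difference of log2(FPKM + 1) after removal of each gene's mean, among 12144 genes. The nearest to EcR were Gat (0.088) and kmr (0.090), and to br pip (0.090) and Fer1 (0.093). The nearest to Eip74EF were CG9346 and CngA (both 0.12), to Eip75B Mrtf (0.093) and Fer3 (0.097), and to Eip78C CG31344 (0.099) and asRNA:CR43470 (0.13). The nearest to the usp entry was Mdh2 (0.14), a mitochondrial enzyme gene with 506 and 372 FPKM in tgs1KO larvae, against 297 and 554 FPKM in WT larvae, then Rpp21 (0.15). The 8 libraries fall into 2 tissues, so this likeness is a description only.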

How the data were processed

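The report covers poly(A) RNA-seq of 4 testis and 4 larval libraries. The authors mapped reads with HISAT2 to FlyBase dmel_r6.16, and the deposited FPKM values were scaled by the authors to transcript length and mapped fragments. The study's methods name featureCounts and DESeq2, and the tool behind the FPKM values is not given in the sources used here. No counts were used, so read depth behind a value is unknown and precision rests on 2 replicates a group.

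Values were taken as log2(FPKM + 1). Named genes that averaged 1 FPKM or more across a tissue's 4 libraries were fitted with limma 3.58.1 in R 4.3.3 (trended eBayes, genotype as the only term), with Benjamini-Hochberg adjustment over all genes tested. Calls needed an adjusted p under 0.05 and a log2 change of at least 1. Each tissue was fitted alone, since tables and mutations differ. An exact test on 2 against 2 libraries cannot pass, so none is given. Tables were handled with Python 3.11.15, pandas 2.3.3, numpy 2.4.6 and matplotlib 3.10.9. The fit was also run on simulated data with independent normal noise, which these libraries need not follow, and no result given here rests on that run.

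The genes, gene lists and markers were chosen with earlier results of these data known. The text names the receptor genes, moi, and of each list the called gene, the most abundant and the most changed, and further ones chosen after their values were seen, together with the larval replicate counts and the sarcomere list. br was matched by symbol, as its identifier differs between the tables. Alternatives were a pseudocount of 0.1, no filter, a filter at 5 FPKM, quantile normalization, median-of-ratios scaling, rescaling to 1000000 outside the mitochondrial genome, no trend, a replicate block, the adjusted p alone and leaving out each library. Assembled larval loci without a gene identifier were left out. Gene positions and exons come from the BDGP6.54 annotation, whose positions equal the larval table's for all 6 receptor genes listed there. The testis table lists usp and br at wider positions than the annotation does. In it 7052 of 15612 genes share their listed position with another gene, against 2 genes in the larval table. There usp shares its position with 7 other genes, Eip75B with 4, br with 3 and EcR with 2. Eip78C and ftz-f1 share theirs with 1 each and Eip74EF with 0.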

Additional observations from a re-analysis of the deposited data

Results flagged for a closer look

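5 genes of the ecdysone lists lay on opposite sides of WT in the tissues, with both mutant libraries below both WT libraries in testes and above them in larvae. Over all tested genes, 32.6% lay below WT in both tgs1hypo libraries and 43.1% above WT in both tgs1KO libraries. Neither the share of all genes that did both nor the number of listed genes tested in both tissues was counted. The 5 genes can therefore not be read as many or few. The difference between tissues was not tested, the mutations differ, and none of these genes was called in either tissue. rpr, a cell death gene that ecdysone induces, changed by -0.53 in tgs1hypo testes (1.26 and 1.44 FPKM, against 1.86 and 3.03 FPKM in WT) and by 0.65 in tgs1KO larvae (6.80 and 6.79 FPKM, against 5.54 and 2.78 FPKM in WT). Hr51 changed by -0.24 in testes and 0.95 in larvae. tai changed by -0.29 in testes and 0.20 in larvae. Eip63E changed by -0.27 in testes and 0.094 in larvae, and the chaperone gene Hsp83 by -0.13 in testes and 0.45 in larvae. All are log2 changes. With 2 libraries a group, a search for single outlying samples could not be made.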

How the results depend on the processing

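None of the receptor genes was called under any alternative with the fold limit, and 2 passed on the adjusted p alone. Over all testis genes, 536 were lower with the filter at 5 FPKM, 263 were higher with median-of-ratios scaling (1004 lower, against 402 and 806), and 3893 were higher and 2655 lower on the adjusted p alone. In larvae between 0 and 7 genes were called higher when 1 library was left out, the most without tgs1KO replicate 1.

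Signs of changes near 0 depended on scaling. In testes quantile normalization gave 0.087 for EcR and 0.067 for br, and median-of-ratios scaling gave -0.022 for ftz-f1. In larvae median-of-ratios scaling gave -0.062 for br, -0.11 for Eip74EF and -0.17 for Eip75B, and quantile normalization gave -0.045, -0.078 and -0.15. Both scalings bring the larval median near 0. Leaving out 1 library gave changes of -0.23 to 0.078 for EcR, 0.26 to 0.65 for usp, -0.17 to -0.079 for br, -0.41 to -0.072 for Eip75B and -0.0035 to 0.16 for ftz-f1 in testes, and of -0.29 to 0.26 for EcR, -0.25 to 0.86 for usp, -0.15 to 0.47 for br, -0.22 to 0.34 for Eip74EF, -0.083 to 0.30 for Eip75B and -0.17 to 0.87 for Eip78C in larvae.

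The replicate block gave 403 higher and 812 lower genes in testes, 0 calls in larvae and 0 receptor genes called in either tissue. Labels give shared numbers only, and deviations of same-numbered samples correlated at 0.13 in testes and -0.17 in larvae. Low FPKM limits Eip74EF and Eip78C in testes. Eip74EF could not be tested with the filter at 5 FPKM or without either WT library.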

Other observations

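In testes 15 of 16 sarcomere genes lay lower in both tgs1hypo libraries, against 32.6% of all tested genes. Mhc, Act57B and Mlc2 are among them and were also counted as sheath markers above. The 16 genes summed to 521 and 555 FPKM in tgs1hypo testes, against 813 and 793 FPKM in WT testes. In larvae 3 of the 6 fat body genes with an entry lay higher in both tgs1KO libraries, a share near the 43.1% of all tested genes. Only 3 of the 6 had enough signal to be tested. The 6 genes summed to 68.1 and 221 FPKM in tgs1KO larvae, against 47.5 and 42.4 FPKM in WT larvae. The sum is carried by tgs1KO replicate 2, the library with the third instar genes.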
